A study of Mus musculus with 18 samples.

Results

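The 4 Hox gene clusters were examined for binding of RAD21, the kleisin subunit of the cohesin ring, in mouse splenic B cells. A peak was taken as a member when its centre lay between the first and the last gene of the Hoxa, Hoxb, Hoxc or Hoxd cluster in the mm9 annotation, or within 50 kb of either end. Peaks of different lists that shared at least 1 bp were joined into 1 site. This gave 17 sites made of 47 peaks, out of 18957 sites and 54864 peaks in the whole genome. The Hoxa window lay at chr6:52055366-52260874, the Hoxb window at chr11:96005630-96279570, the Hoxc window at chr15:102701534-102917274 and the Hoxd window at chr2:74456367-74653200. The annotation placed 39 Hox genes in them.

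The B cells came from C57BL/6J mice aged 8 to 10 weeks, and each replicate was a pool of cells from 12 mice. They were resting (0 h) or had been stimulated, for 48 h or 96 h, with the cytokine IL-4 (2 ng/ml) and LPS (50 µg/ml), a component of the bacterial wall that activates B cells. Cells of the 96 h group were in addition enriched for IgG1-positive cells, so that time and purification cannot be told apart. Each time point had 3 replicates, and peaks had also been called on the merged reads of the replicates, here named the pooled sample, which gave 12 peak lists in all. A list gives each peak a score, whose statistic is not named, so scores were compared as percentiles within a list. The lists hold neither read counts nor expression values, so the depth behind a peak is not known, and the cell type and the activity of the Hox genes were not checked here.

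Hox genes encode homeodomain transcription factors that give the body axis and the limbs their regional identity. In each cluster the genes stand in the order in which they are used, from the anterior genes of groups 1 to 3 through the central groups 4 to 8 to the posterior groups 9 to 13, and all are transcribed in the same direction, with the posterior end upstream. Several of them, among them Hoxb4 and Hoxa9, act in blood stem and progenitor cells, and the clusters are in many differentiated cells held silent by Polycomb proteins. Cohesin is often found at sites of CTCF, a zinc finger protein whose motif has a direction, and such sites are known to divide Hox clusters into separate domains.

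Chromosomes without a Hox cluster held 700 sites with peaks in 6 or more replicates, and these served to learn a motif 20 bases long. Its consensus, NCCACNAGGGGGCGCNNNNN, where N marks a position without a base in the majority, resembles the known motif of CTCF. CTCF itself was not measured in the data used here. Scores from 9.95 log2 odds upwards counted as a match, on either strand and within 100 bp of the site's centre, a level reached by 5.01% of windows of 200 bp placed 1 kb away from sites. A match was found at 11 of the 17 Hox sites (64.7%), beside 69.4% of 4514 other sites on the same chromosomes. The matches are printed because they carry the comparison of the clusters, each with 5 bases on either side, in the direction of the motif and with the match in capitals. Letters name the cluster, and numbers follow the chromosome.
A1, chr6:52171796-52171825, minus strand: aaaatTCCAGGAGATGGCAGTGTGGctcca
A2, chr6:52207114-52207143, plus strand: ttgtcAACACGAGGTGGCGCCCTTGatcta
A4, chr6:52256040-52256069, plus strand: cgatcGGCAGTGGGGGGCGCACCAAgacag
B1, chr11:96096408-96096437, minus strand: tcgcgGCCGGCAGGGGTCACTGTGTggccg
B3, chr11:96140256-96140285, plus strand: cagtgGCCGCTAGATGGCATCCTTGctcca
B4, chr11:96164553-96164582, plus strand: caatcGCCGGGAGGTGGCGCGCTCTgctca
C1, chr15:102796997-102797026, plus strand: aggcaGCTGCTAGGTGGCGCTGTTActcca
C2, chr15:102818018-102818047, plus strand: aagtgAACGCGAGGTGGCGCTGTTGctcaa
D1, chr2:74511223-74511252, minus strand: aaacgCCCAGGAGATGGCGAGCGTGctcca
D2, chr2:74540446-74540475, plus strand: atttgGCCACTAGAGAGCGCTGTTGctcca
D3, chr2:74553972-74554001, plus strand: ctttgTCCAGGAGGAGGCGCTGTAGgacaa

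At 2 Hoxb sites without a match, both from lists of 48 h-stimulated cells, the peak lay on a tandem repeat. The 26 bases of the repeat at B6 and 30 bases of that at B7 are shown on the plus strand, with the repeat unit in capitals.
B6, chr11:96186037-96186062: CTctctctctctctctctctctctct
B7, chr11:96225704-96225733: GAgagagagagagagagagagagagagaga

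**Figure D1:**
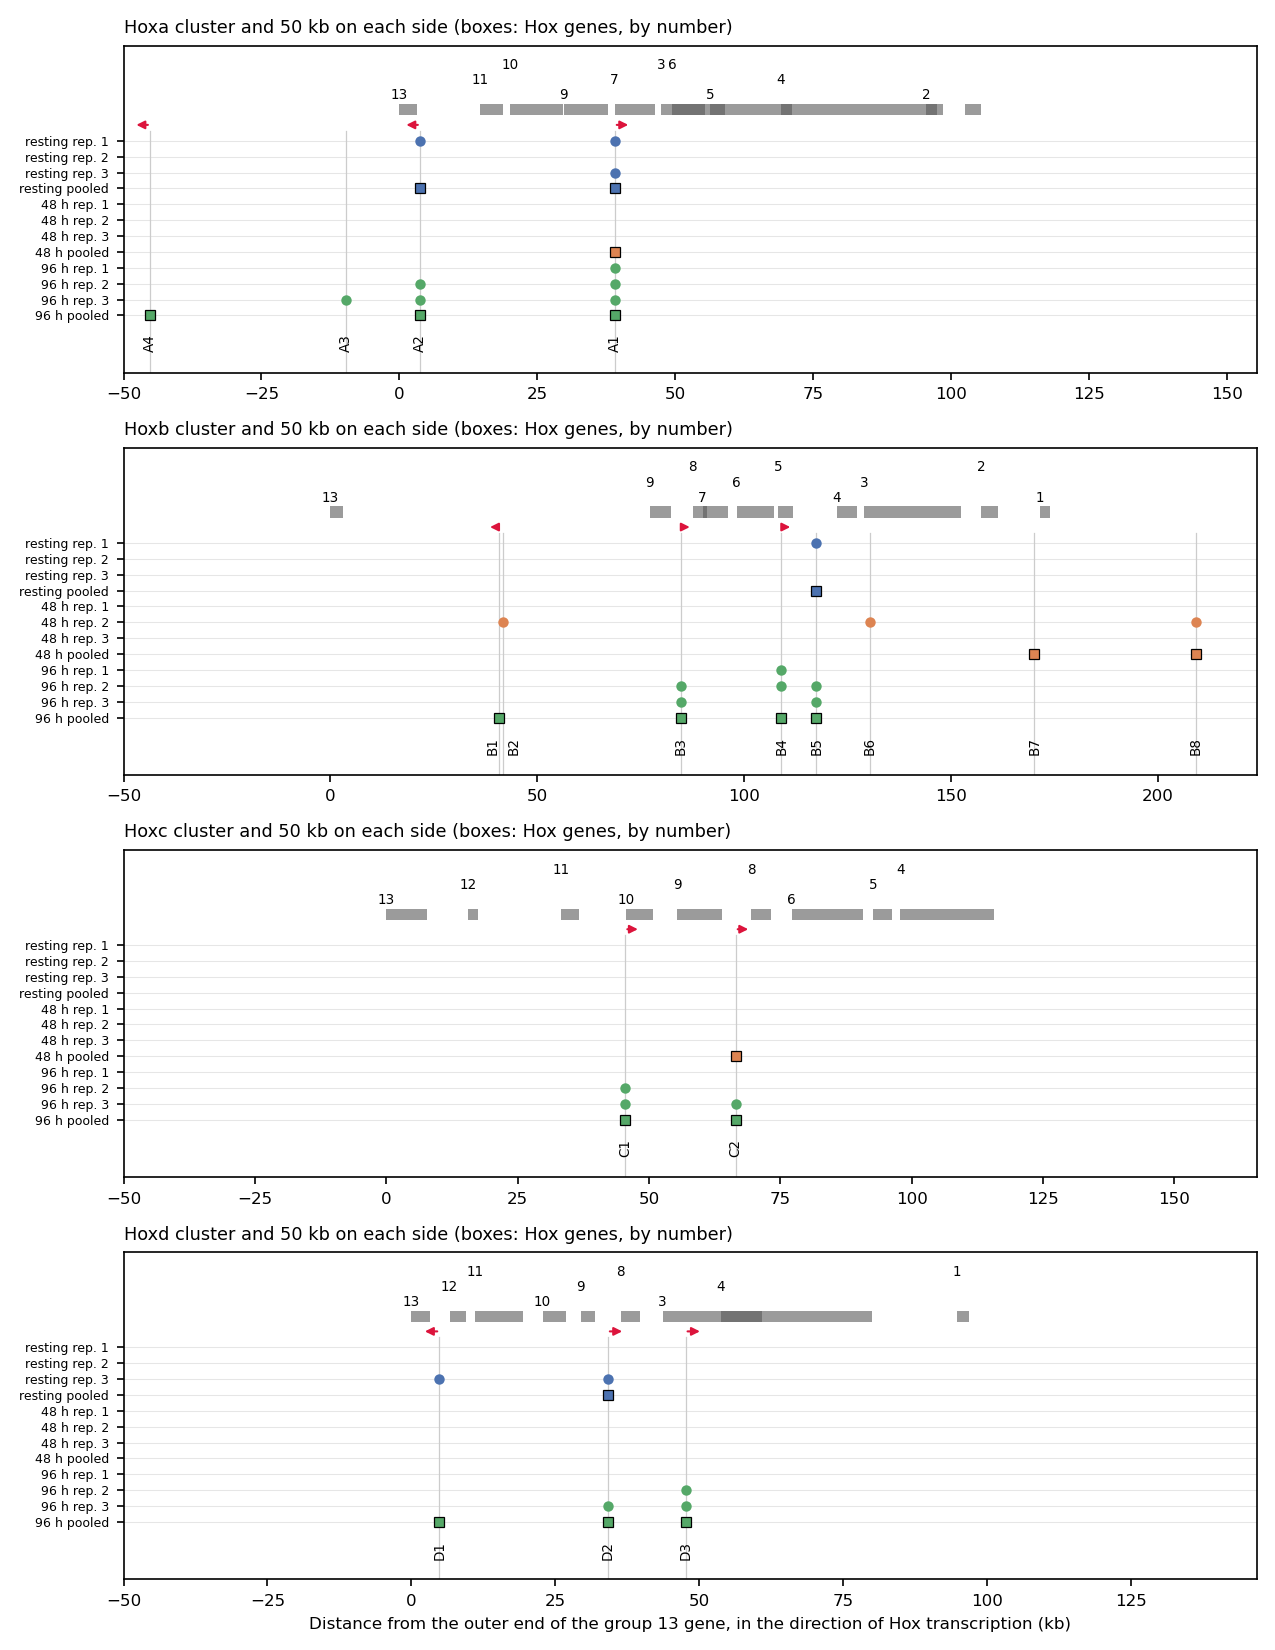
RAD21 peaks in the 4 Hox windows, with the distance in kb from the outer end of the group 13 gene on the x axis, read in the direction of Hox transcription, and the 12 lists on the y axis. Circles are peaks of replicates, squares peaks of pooled samples, grey boxes Hox genes by number, and red arrows motif matches with their direction. Sites lie mostly within the clusters, 14 of 17, and the match points to the right at 7 sites and to the left at 4 sites on the posterior side.

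Within the clusters lay 14 sites, or 2.85 per 100 kb, and the flanks of 50 kb held 3 sites, or 0.75 per 100 kb. From the anterior edge of the window, the centre of the nearest site lay 116439 bp away in Hoxa, 99238 bp in Hoxc and 99213 bp in Hoxd. From the posterior edge it lay 4776 bp away in Hoxa, 90765 bp in Hoxb, 95493 bp in Hoxc and 54806 bp in Hoxd. Both ends of the Hoxc window were thus empty over similar distances. In the Hoxb window the anterior side held sites up to 14755 bp from the edge, but those nearest to the edge, B6, B7 and B8, had peaks in 48 h lists only. Beyond the windows, the nearest site was between 50777 and 551462 bp from an edge.

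The Hoxa cluster held the site with the most support. A1, at chr6:52171642-52171969, covered the transcription start of Hoxa7, a gene of thoracic identity, and its centre lay 48 bp downstream of the start in an untranslated part of the exon. Upstream of it, 1294 bp away, lay the end of Hoxa9, a gene active in blood progenitors and in leukaemia. A1 had a peak in 8 of 12 lists, more than any other Hox site. In resting cells the score was 9.28 in replicate 1 and 10.2 in replicate 3, and no peak was called in replicate 2. At 48 h no replicate had a peak, although the pooled sample had a weak peak with a score of 6.63, at percentile 19.2 of its list. At 96 h all 3 replicates had a peak, with scores of 10.2, 31.4 and 33.6 in replicates 1, 2 and 3, which are percentiles 52.0, 98.1 and 96.0. In the pooled sample of 96 h the score was 74.2, which ranks 158 of 12806 peaks, whereas in that of resting cells it was 22.0, at percentile 73.6. A1 was thus a middling or low peak in the resting replicates and among the highest in 2 of 3 replicates at 96 h.

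A2, at chr6:52207026-52207281, lay between Hoxa11 and Hoxa13, genes of the distal limb and the urogenital tract, 540 bp past the end of Hoxa13. It had a peak in replicate 1 of resting cells (score 12.9, percentile 63.3) and in replicates 2 and 3 at 96 h (scores 6.95 and 12.2, percentiles 8.15 and 49.7). The pooled samples of both times had it too, with scores of 17.1 and 22.5. In the flank beyond Hoxa13, A3 was called in replicate 3 of 96 h only (score 10.4) and A4 in the pooled sample of 96 h only (score 9.85). These flank sites and B8 were named after their values had been seen. No site was called from Hoxa6 to the anterior end of the cluster.

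In the Hoxb cluster there were 8 sites, 7 of them between its genes. B3, at chr11:96140183-96140405, lay between Hoxb9 and Hoxb8, a gene that acts in myeloid progenitors, and 2925 bp upstream of the Hoxb8 start. It was called at 96 h only, with scores of 13.3 and 20.1 in replicates 2 and 3 (percentiles 60.4 and 80.8) and 25.5 in the pooled sample. B4, at chr11:96164466-96164693, lay in an untranslated part of the Hoxb5 exon 670 bp after the start, where an antisense transcript, 0610040B09Rik, is annotated as well. Hoxb5 marks long-lived blood stem cells. The scores of B4 were low in replicates 1 and 2 of 96 h, 4.96 and 8 (percentiles 0.713 and 13.8), and reached 17.6 in the pooled sample.

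B5, at chr11:96172973-96173194, lay between Hoxb5 and Hoxb4, 4915 bp upstream of Hoxb4, a regulator of blood stem cell expansion. It was called in replicate 1 of resting cells (score 10.3), in replicates 2 and 3 of 96 h (10.6 and 9.38) and in both pooled samples (16.1 and 23.1). Its percentiles, from 30.8 to 41.3 in the replicates, showed no large difference between the times at which it was called. Its best motif score was 7.66, below the limit for a match. B1, between Hoxb13 and Hoxb9, was called in the pooled sample of 96 h alone (score 17.4).

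The other 4 Hoxb sites were called in 48 h lists alone. B2 between Hoxb13 and Hoxb9 and B6 in the intron of Hoxb3 were called in replicate 2 (scores 8.40 and 6.90). B7, between Hoxb2 and the hindbrain gene Hoxb1, was called in the pooled sample (11.3), and B8 beyond Hoxb1 in replicate 2 and the pooled sample (18.1 and 15.3). The 3 peaks of replicate 2 were all that 48 h replicates had in the 4 windows. That list differed from the others of 48 h, with 5254 peaks over 407302 bp. Replicates 1 and 3 had 1538 peaks over 304432 bp and 1563 over 268784 bp, so peaks of replicate 2 were narrower on average. Whether these sites belong to the time point or to that replicate was not tested. None of the 4 sites held a match, and 2 of them lay on a tandem repeat of 26 or 34 bp. They were narrow, with a median width of 76.5 bp against 222 bp for the other 13 Hox sites. Among 1010 sites elsewhere on the same chromosomes that were called in 48 h lists only, 3.27% held a match and 45.4% a tandem repeat of at least 20 bp, and their median width was 73 bp.

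The Hoxc cluster held 2 sites and both were absent from all lists of resting cells. C1, at chr15:102796921-102797133, was centred 200 bp upstream of the start of Hoxc10, a gene of lumbar and hindlimb identity. It was called in replicates 2 and 3 of 96 h (scores 13.1 and 16.3, percentiles 56.3 and 70.2), and with 40.7 in the pooled sample it had the second highest pooled score of the Hox sites (percentile 90.2). C2, at chr15:102817910-102818163, lay between Hoxc9 and Hoxc8, a thoracic identity gene, 3017 bp upstream of the Hoxc8 start. It had a peak in replicate 3 of 96 h (13.1) and in the pooled samples of 48 h (8) and 96 h (22.5). C2 was, beside A1, the only Hox site in the pooled lists of both stimulated stages.

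The Hoxd cluster held 3 sites, none of which was called at 48 h. D1, at chr2:74511076-74511270, lay between Hoxd13 and Hoxd12, genes needed for the digits, 1813 bp upstream of Hoxd12. It was called in replicate 3 of resting cells (score 9.41), while at 96 h only the pooled sample had it, with a score of 5.95 at percentile 1.94. D2, at chr2:74540369-74540610, lay between Hoxd9 and Hoxd8, 2183 bp upstream of Hoxd8, and was called in replicate 3 of resting cells (8.15) and replicate 3 of 96 h (13.1). Its pooled scores were 8.76 and 14.2. D3, at chr2:74553878-74554096, lay between Hoxd8 and Hoxd4, within an annotated intron of Hoxd3, in an exon of the antisense transcript 1700109F18Rik. It was called at 96 h only, in replicates 2 and 3 (10.2 and 14.6) and in the pooled sample (22.5).

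**Figure D2:**
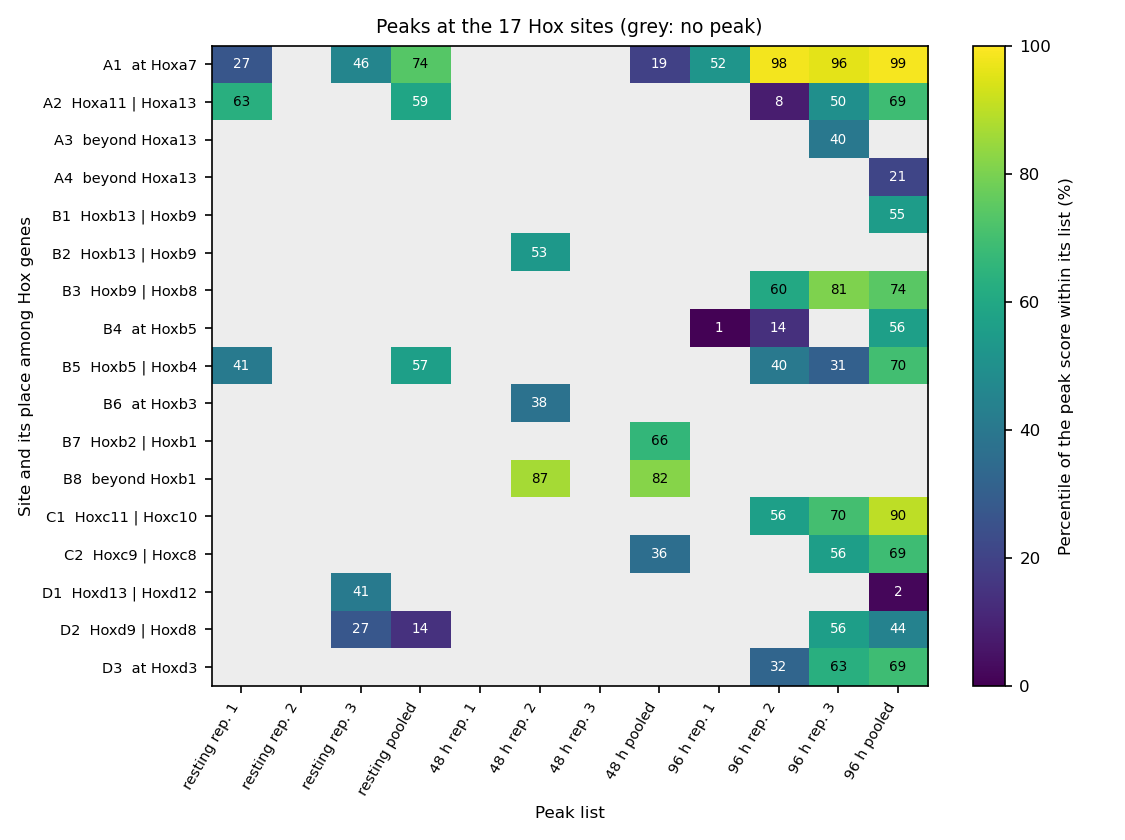
Percentile of the peak score within its list for the 17 Hox sites (rows, with their place among the Hox genes) in the 12 peak lists (columns), where grey marks a list without a peak. At 96 h A1 reaches percentiles 98.1 and 96.0 in replicates 2 and 3, whereas most other peaks lie in the middle of their lists.

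The question of how cohesin binding changes with activation was asked for the Hox windows together. The windows held 3, 0 and 3 peaks in replicates 1, 2 and 3 of resting cells, 0, 3 and 0 at 48 h, and 2, 7 and 9 at 96 h. Resting and 96 h replicates overlapped, and so did 48 h and 96 h replicates. The mean was 2 ± 1.73 in resting cells, 1 ± 1.73 at 48 h and 6 ± 3.61 at 96 h (SD, n = 3 for each). The differences were +4 between 96 h and resting cells (exact permutation test, two-sided p = 0.3, adjusted p = 0.6 over 6 comparisons), +5 between 96 h and 48 h (exact p = 0.2, adjusted p = 0.6) and -1 between 48 h and resting cells (exact p = 1, adjusted p = 1). With 3 replicates against 3, this test cannot give a p below 0.1, so none of these differences could pass the threshold of 0.05. With every list limited to its 821 highest peaks, the differences of 96 h from resting cells and from 48 h were both 0.333 (exact p = 1), and that of 48 h from resting cells was 0.

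The lists differ in length, from 821 peaks in replicate 2 of resting cells to 8579 in replicate 3 of 96 h, and the share of a list that lay in the windows was therefore compared as well. It was 0.143%, 0 and 0.0838% in the resting replicates, 0, 0.0571% and 0 at 48 h, and 0.0713%, 0.154% and 0.105% at 96 h. The 0 of resting replicate 2 allows a share of up to 0.365%, and those of 48 h replicates 1 and 3 up to 0.195% and 0.192%, taking 3 peaks as the limit and counting error only. Their exact binomial 95% intervals reach 0.448%, 0.240% and 0.236%. Every 96 h replicate lay above every 48 h replicate, with means of 0.110% ± 0.0415 and 0.0190% ± 0.0330 (SD, n = 3). This is the most extreme order possible and gave an exact p = 0.1, with an adjusted p = 0.6. With lists of equal length the difference was 0.0406 percentage points instead of 0.0909 (exact p = 1). In the pooled samples the shares were closer together, 0.0703% in resting cells, 0.0717% at 48 h and 0.0937% at 96 h. Between 96 h and resting cells (0.0756% ± 0.0719, SD, n = 3) the difference was 0.0343 percentage points (exact p = 0.6, adjusted p = 0.72). It was -0.00347 without replicate 2 of resting cells, the shortest list.

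**Figure D3:**
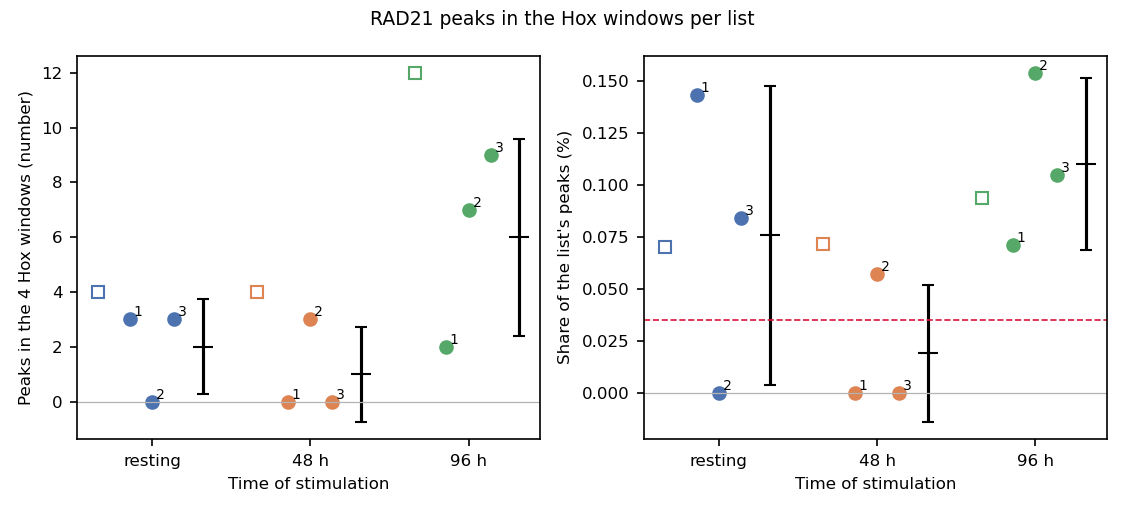
Number of peaks in the 4 Hox windows (left) and their share of the list in % (right) at each time of stimulation. Filled circles are replicates with their number, open squares pooled samples, black bars the mean ± SD of 3 replicates, and the dashed line is the windows' share of the sequenced genome. The 96 h replicates, with 2, 7 and 9 peaks, reach the highest numbers, while resting and 96 h shares overlap.

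At the level of single sites, sites that all replicates of 1 time point had and all replicates of another lacked were counted over the whole genome. Among 13 Hox sites with a peak in at least 1 replicate of 48 h or 96 h, A1 was in all 96 h and no 48 h replicate, against 5.69% of 14534 sites in the genome. None of the 13 showed the opposite pattern (0.0206% in the genome). Of 11 Hox sites tested between 96 h and resting cells, 0 were all-or-none in either direction, where the genome had 5.85% for 96 h and 0.0876% for resting cells. Of 8 tested between 48 h and resting cells there were also 0 (genome 1.27% for resting cells and 0.0606% for 48 h). At these low background shares a count of 0 or 1 among so few sites does not set the Hox sites apart. Fisher's exact test at each site cannot give a p below 0.1 with 3 replicates against 3, so no site could pass it. The weak 48 h peak of the pooled sample at A1 also shows that a site missed in all replicates was not always missed in the merged reads. Without replicate 1 of 96 h, the count of sites in every 96 h and no 48 h replicate was 6, and without replicate 3 of 96 h it was 2.

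Sites were denser in the Hox windows than in the rest of the genome, 19.1 against 7.41 per Mb. In the replicates, the windows held 3.36 ± 3.55 and the rest of the genome 1.34 ± 0.948 peaks per Mb (SD, n = 9). The difference was 2.03 ± 2.73 peaks per Mb (SD, n = 9) and positive in 6 of 9 replicates (exact sign-flip permutation test, two-sided p = 0.0430). The 3 replicates with a negative difference were those without a peak in the windows. This test takes positive and negative differences of the same size as equally likely. A replicate without a peak in the windows can, however, be lower only by its own density elsewhere, which is small. The replicates also come from different time points, so this p is a rough guide only. The call did not hold when replicate 1 or 3 of resting cells, replicate 2 of 48 h or any replicate of 96 h was left out (exact p from 0.0703 to 0.0859). These were the 6 replicates with a positive difference. It was also lost without the 48 h lists (3.02 per Mb, exact p = 0.0625, n = 6), where each of the remaining replicates but resting replicate 2 was higher in the windows. With each list limited to its 821 highest peaks the difference was 0.177 per Mb (exact p = 0.398).

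Another large gene family in tandem, the clustered protocadherins, which give neurons their surface identity, served for comparison. Its window, from the first to the last gene with 50 kb on either side, held 5 sites. In the replicates it had 0.0659 ± 0.0856 peaks per 100 kb, against 0.336 ± 0.355 in the Hox windows (SD, n = 9). The difference of 0.270 ± 0.293 per 100 kb (SD, n = 9) was positive in 6 replicates, negative in 1 and 0 in 2 (exact sign-flip permutation test, two-sided p = 0.03125). The limits of the test given above apply here too. It too failed the threshold (exact p = 0.0625) when replicate 1 or 3 of resting cells, replicate 2 of 48 h or any replicate of 96 h was left out. These were the 6 replicates with a positive difference, and each gave the same p, so the failure does not point to particular replicates. With lists of equal length it was 0.0498 per 100 kb (exact p = 0.125).

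The 4 clusters had 4 sites and 15 peaks (Hoxa), 8 sites and 17 peaks (Hoxb), 2 sites and 6 peaks (Hoxc) and 3 sites and 9 peaks (Hoxd). Per 100 kb, the replicates had on average 0.487 ± 0.544 peaks in Hoxa, 0.406 ± 0.463 in Hoxb, 0.282 ± 0.448 in Hoxd and 0.155 ± 0.328 in Hoxc (SD, n = 9). No 2 neighbours in this order differed beyond their spread. The largest difference, 0.332 ± 0.349 per 100 kb between Hoxa and Hoxc, was positive in 5 replicates and 0 in 4 (exact sign-flip permutation test, p = 0.0625, adjusted p = 0.375 over 6 pairs). For the other 5 pairs the adjusted p of the same exact test lay between 0.375 and 0.719. Hoxb had the most sites, but without the 48 h lists it had 4 of 13, and under a stricter score minimum the difference between Hoxb and Hoxc was -0.0328 peaks per 100 kb.

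**Figure D4:**
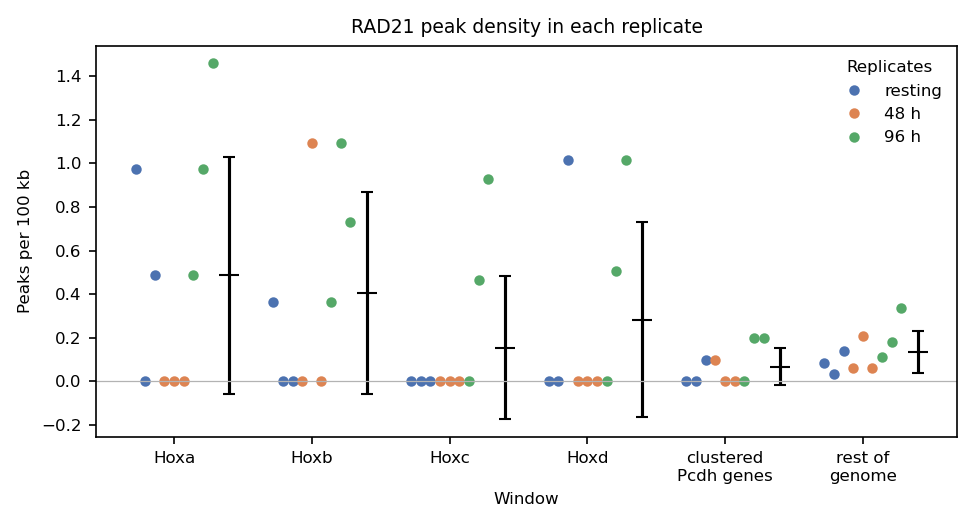
Peaks per 100 kb in the windows of the 4 Hox clusters and of the clustered protocadherin (Pcdh) genes and in the rest of the genome, with 1 point for each of the 9 replicates, coloured by time of stimulation, and the mean ± SD in black. Hoxa has the highest mean, 0.487, and Hoxc the lowest of the 4 clusters, 0.155, while all 4 include replicates without a peak.

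Support by replicates was moderate. The median Hox site had a peak in 1 replicate, as had the median site elsewhere, and the maximum was 5 at A1. At least 2 replicates called 8 of the 17 sites (47.1%), compared with 32.0% of 18940 sites elsewhere. No Hox site was called in 6 or more replicates, whereas 4.95% of the other sites were. In the pooled sample of 96 h there were 12 Hox sites, of which 7 had a peak in at least 2 of its replicates (58.3%, against 35.8% elsewhere), 4 were also in the pooled list of resting cells (33.3%, against 38.4%) and 2 in that of 48 h (16.7%, against 25.7%). All 4 Hox sites of the pooled resting list, A1, A2, B5 and D2, were also in the 96 h list, as were 86.4% of the resting sites elsewhere. At the other time points support by at least 2 replicates was not above that elsewhere. It was found at 1 of the 4 resting sites (25%, against 31.0%) and at 0 of the 4 sites of 48 h (against 14.1%), of which 1 had a peak in any replicate of 48 h (25%, against 75.2%).

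The sites were set beside the starts of the Hox genes. Of 39 Hox genes, 22 had a site within 10 kb of a start (56.4%), while 25.4% of 22219 protein-coding genes did. With sites called in at least 1 replicate it was 21 genes (53.8%), against 20.6% of all. Hox genes lie close together and share sites, so the genes are not independent. The number was 4 of 8 anterior, 9 of 15 central and 9 of 16 posterior genes, and 4 of 11 in Hoxa, 8 of 10 in Hoxb, 3 of 9 in Hoxc and 7 of 9 in Hoxd. Hoxb5, Hoxb4, Hoxd3 and Hoxa13 each had 2 sites in reach. The median distance of a start from the nearest site of any list was 10618 bp for anterior genes, 5277 bp for central genes and 9363 bp for posterior genes. Taking only sites called by at least 2 replicates, the median distance from a start was 43457 bp for anterior genes, 6048 bp for central genes and 11756 bp for posterior genes.

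The sequence of the Hox sites was compared with that of other sites on the same 4 chromosomes, none of which had been used to learn the motif. Of the 13 Hox sites with a peak in a resting or 96 h list, 11 held a match (84.6%, exact binomial 95% interval 54.6 to 98.1%), beside 88.4% of 3504 other such sites. The matches in the Hox windows were weaker. The best score had a median of 14.5 log2 odds and ranged from 7.66 at B5 to 18.1 at D2, whereas the median elsewhere was 17.6 with quartiles of 14.2 and 20.1. At a limit of 17.3 log2 odds, passed by 1% of distant windows, only D2 kept its match, 7.69% of the 13 sites (interval 0.195 to 36.0%), against 53.2% elsewhere. The bases around the Hox sites were rich in CpG, with a median of 9 CpG in 200 bp against 3, and a median GC content of 59% against 49.5%. Motif details, CpG content and tandem repeats were chosen after the lists had been seen.

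**Figure D5:**
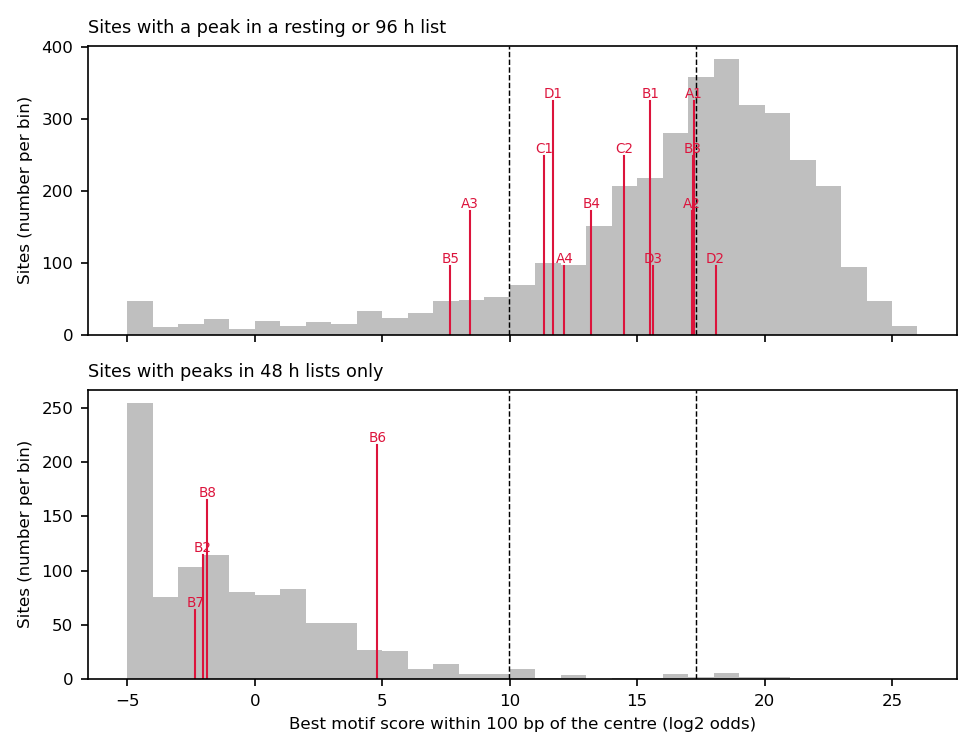
Best motif score in log2 odds within 100 bp of the centre for Hox sites (red lines with their names, whose height has no meaning) and for the other sites of the 4 chromosomes (grey bars, number of sites per bin of 1 log2 unit). Dashed lines are the limits passed by 5% and 1% of windows 1 kb away. In the upper panel, 11 of 13 Hox sites with a peak in a resting or 96 h list pass the first limit and 1 passes the other, and in the lower panel none of the 4 sites of 48 h lists passes either.

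The matches had an order along the clusters. At 7 sites, A1, B3, B4, C1, C2, D2 and D3, the match printed above read in the direction of Hox transcription. At the other 4, A2, A4, B1 and D1, it read against it, and each of these lay on the posterior side of all matches of the first kind in its cluster. In Hoxa, Hoxb and Hoxd the 2 kinds thus pointed away from each other, with a stretch between them that held part of the posterior genes. Support for the 4 sites was low, as A2 had a peak in 3 replicates and D1 in 1. A4 and B1 were called in the pooled sample of 96 h alone. The pattern rests on B1 alone in Hoxb and on D1 alone in Hoxd. In Hoxc both matches read with transcription. This pattern was noticed in the data and is a description of 11 sites.

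A site with a match lay next to the group 9 gene in all 4 clusters, on its anterior side. These were B3 between Hoxb9 and Hoxb8, C2 between Hoxc9 and Hoxc8, D2 between Hoxd9 and Hoxd8, and A1. Unlike the others, A1 covered a gene start, that of Hoxa7, the next gene after Hoxa9. All 4 matches read with transcription. Of the 30 bases printed for each, 18 to 20 were identical between any pair of the 4, with a median of 19. For comparison, the median was 16 over all 55 pairs of Hox matches, whose highest value was 22, between A2 and C2, and 14 over all pairs of 3099 matched sites elsewhere, of which 9.70% had at least 18. The likeness was not particular to the 4 sites. C1, which lies elsewhere, shared 21 bases with C2, 20 with D2 and 19 with B3, though 16 with A1. A1 and D1 shared 21. The 4 sites were grouped after the lists had been seen. The site next to group 9 was called at 96 h in every cluster, in 3 replicates at A1, in 2 at B3 and in 1 at C2 and D2. In resting replicates it was called only in Hoxa and Hoxd. At the end of the printed stretch, within its last 10 bases, the word CTCCA stood in 5 of 11 Hox matches (A1, B3, C1, D1 and D2, 45.5%), and in 56 of 3099 matches elsewhere (1.81%). The word was picked by eye from these sequences, so no test was made.

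Genes whose products act with Hox proteins or on Hox clusters were examined in the same way. Of 19 genes of the Polycomb and Trithorax groups, which keep Hox genes silent or active, 5 had a site within 10 kb of a start (26.3%), close to the 25.4% of all coding genes. Phc2, a subunit of Polycomb complex PRC1, had 2 sites in reach. The better supported, 6582 bp from a start, was called in 7 of 9 replicates, 3 of resting cells, 1 of 48 h and 3 of 96 h. The only site within 10 kb of a start of Cbx8, a chromodomain subunit of the same complex, was called in 4 replicates (1, 0 and 3). Of 9 genes for TALE homeodomain proteins, which bind DNA together with Hox proteins, Meis1 and Pknox1 had a site (22.2%). Meis1 had 1 site, called in 1 replicate of resting cells. Pknox1 had 2 sites, each called in 1 replicate, and the 1 looked at more closely was from 48 h. Of 6 genes of the Cdx and ParaHox families, relatives and regulators of Hox genes, Gsx2 alone had a site, called in 0 replicates.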

How the data were processed

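RAD21 ChIP-seq peak lists of resting, 48 h- and 96 h-stimulated B cells were analysed, 9 of replicates and 3 of pooled samples. The authors had aligned reads to mm9 with Bowtie2, drawn equally many unique positions per set and, with MACS and the input libraries as control, called peaks at a false discovery rate of 0.05. The deposited value of a peak is a score given by the authors' calling. The 9 input libraries entered only through that calling.

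Genes came from GENCODE M1 and sequence from NCBIM37, which is mm9. No peak lay past a chromosome end. The RefSeq promoter table was of another build and was not used. Numbers and shares were compared by exact permutation tests, densities by exact sign-flip tests over replicates, with Benjamini-Hochberg adjustment, in Python 3.11.15 with numpy 2.4.6, scipy 1.17.1 and matplotlib 3.10.9. The scripts were tested on simulated data. The precision of a share is given by its exact binomial interval.

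Every site between the first and last gene of a cluster was named, and of each further gene list the 3 genes whose site had the most replicates. Of these genes, 1 is not reported here. The members and lists were chosen with earlier results of these data known. Alternatives were a stricter score minimum (10.65 for replicates, 15.02 for pooled samples), lists of 821 peaks, other flanks, any overlap, base pairs, other merging, a replicate block and leaving out each replicate. Leaving out the 48 h lists was added after the data had been seen.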

Additional observations from a re-analysis of the deposited data

How the results depend on the processing

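Of 114 comparisons with an alternative other than leaving out 1 replicate, 99 stayed on their side of the threshold without reversing or, for counts, within 1.5 times. Among these, 4 differences became 0, and with lists of equal length the number of peaks at 96 h exceeded those of resting cells and of 48 h by only 0.333. The time comparisons could not give an exact p below 0.1, or 0.25 with the replicate block, so their side was fixed in advance. Assignment by any overlap returned the reported values unchanged. The 9 comparisons that lost the threshold were all of the Hox density against the rest of the genome or the protocadherin window. The density of the Hox windows above the rest of the genome (2.03 peaks per Mb) was 0.826 under a stricter score minimum (exact p = 0.355), 0.177 with lists of equal length (exact p = 0.398), 0.985 with 100 kb flanks (exact p = 0.125), 3.02 without the 48 h lists (exact p = 0.0625) and 378 bp per Mb by base pairs covered (exact p = 0.0625). Without single replicates it ranged from 1.44 to 2.36. The difference from the protocadherin window (0.270 per 100 kb) was 0.128 (exact p = 0.125), 0.0498 (exact p = 0.125), 0.0923 (exact p = 0.133) and 0.366 (exact p = 0.0625) in the first 4 of these settings, and 0.203 to 0.317 without single replicates. Under the stricter minimum, Hoxb minus Hoxc was -0.0328 and Hoxc minus Hoxd 0.0416 per 100 kb, sites numbered 11, and 0 sites were in every 96 h and no 48 h replicate, as with lists of equal length. Hoxa minus Hoxb ranged from -9.46e-05 to 0.228 without single replicates, the share at 96 h minus resting from -0.00347 to 0.0681, and sites in every 96 h replicate from 1 to 6 against 48 h and from 0 to 3 against resting cells. Sites in every resting and no 48 h replicate numbered 0 to 1. At the stricter motif limit, 5.88% of the 17 sites held a match, beside 41.5% of 4514 other sites on the same chromosomes. The causes were not tested, except that fewer peaks entered the stricter and shorter lists.

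The replicate numbers did not pair the samples, since same-numbered replicates correlated in their deviations from -0.259 to 0.314, with 3 of 9 pairs above 0.1 and 5 of 9 replicates closest to their own number. With the replicate number as a block, the number of peaks at 96 h minus 48 h was 5 (exact p = 0.25, the smallest possible) and no call changed. The number of peaks per list limits every result here. Equally many unique positions were drawn per replicate, but the number of reads at each peak is unknown.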

Other observations

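The 4 windows were also searched for strong motif matches without regard to peaks, at 17.3 log2 odds or more, a level that 10 of the 11 matches at Hox sites do not reach. There were 25 such matches, of which only that at D2 lay at a site of any list (4%), whereas 1900 of 14545 on the rest of the 4 chromosomes did (13.1%). Of the 25, 18 contained the same 12 bases, CCAGAAGAGGGC, and 0 of these lay at a site. The 6 others without a site included a match between Hoxa5 and Hoxa6, within the annotated span of Hoxa3, with a score of 18.9, a match within Hoxb3 with 21.6 and a match upstream of Hoxd13 with 21.5. They are printed for comparison with the occupied matches, in the direction of the motif and with the match in capitals. The first reads with Hox transcription and the other 2 against it. A list without a peak does not show that RAD21 was absent. Of the 7 matches without the 12 shared bases, 1 lay at a site. Matches on the rest of the chromosomes were not split by these bases, so the shares of 4% and 13.1% are not like for like. With 1 of 25 at a site, the count is too small to set the Hox windows apart. This search was chosen after the lists had been seen.
Hoxa5 to Hoxa6, chr6:52154646-52154675, minus strand: cagtcTCCAGCGGGTGGCGCTCGAGtccga
Hoxb3, chr11:96207497-96207526, minus strand: gagggGCCGGCAGGGGGCGGCAGCGgatcc
Upstream of Hoxd13, chr2:74493572-74493601, minus strand: ctgctGCCGCTAGGGGGCGCCCCGGggggt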
